A study of Mus musculus with 6 samples.

Results

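The genes described here are 47 genes of the cell cycle, chosen as a named list of S phase and mitotic genes with the D cyclins and CDK inhibitors that act before them. They comprise 20 S phase genes, 23 mitotic genes, the D cyclins Ccnd1 and Ccnd2, and the CDK inhibitors Cdkn1a and Cdkn1b. All 47 had enough counts to be tested, among 18506 genes tested of 36137 genes with a matched transcript. The list names genes and uses no measured value, but it was chosen with earlier results of these data known. RNA was measured in bone marrow-derived macrophages (BMDMs), which are macrophages grown from bone marrow, after 8 hours of hypoxia serum starvation (HSS), a culture model of ischemia. Cells were cultured for 7 days before their medium was replaced by a starvation medium without serum under 2.1% oxygen. DRP1, the product of Dnm1l, is the GTPase that divides mitochondria, and the comparison asked how its loss altered RNA levels in macrophages under HSS.

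The WT group was LysM-Cre+/- Drp1+/+ per the study's methods, and the Drp1 KO group was LysM-Cre+/- Drp1 fl/fl. Both groups therefore carried the Cre transgene, whose lysozyme M promoter is active across myeloid cells. The mice of the study were young adults of at least 8 weeks and of both sexes. Marrow was pooled from 2 mice of each genotype according to the methods, and the labels call the 3 libraries of each group biological replicates. The sources used here do not say that each library came from a separate pool, so p-values measure the spread between these libraries, which may be technical.

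The cell cycle is driven by cyclin-dependent kinases (CDKs). D cyclins partner CDK4 and CDK6 and phosphorylate the retinoblastoma protein, which frees E2F factors to switch on the genes of DNA replication, and the inhibitors p21 (Cdkn1a) and p27 (Cdkn1b) hold these kinases back. Mitotic genes are switched on later by the complex of MYBL2 with MuvB and by FOXM1, and are held down in resting cells by the related DREAM complex. BMDMs divide in culture in response to the growth factor M-CSF.

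The promoters of both phases are shown first, because S phase and mitotic members are compared throughout and are known to be switched on through different promoter motifs. The windows are RefSeq promoters on GRCm38.p6, from 250 bases before to 50 bases after the first listed start of each gene. Of the 47 members, 37 had one. The motifs searched on both strands were CCAAT, the box bound by NF-Y, the CHR element as TTTGAA or TTCGAA, and E2F sites as TTTCCCGC, TTTCGCGC, TTTGCCGC or TTTGGCGC. TTCGAA reads the same on both strands, and 2 E2F words on opposite strands can overlap. The 250 bases before the start are printed for Mki67 and Cdc20 of the mitotic members, which hold a CHR beside CCAAT boxes, and for Mcm5 and Mcm6 of the S phase members, which hold overlapping E2F words. Capitals mark every motif found.
Mki67 (chr7:135716380-135716629, minus strand): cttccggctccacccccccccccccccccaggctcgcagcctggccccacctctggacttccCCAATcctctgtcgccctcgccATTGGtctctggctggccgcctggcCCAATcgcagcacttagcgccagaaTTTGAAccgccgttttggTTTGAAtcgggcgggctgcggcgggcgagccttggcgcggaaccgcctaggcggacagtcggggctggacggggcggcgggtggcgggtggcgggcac
Cdc20 (chr4:118437344-118437593, minus strand): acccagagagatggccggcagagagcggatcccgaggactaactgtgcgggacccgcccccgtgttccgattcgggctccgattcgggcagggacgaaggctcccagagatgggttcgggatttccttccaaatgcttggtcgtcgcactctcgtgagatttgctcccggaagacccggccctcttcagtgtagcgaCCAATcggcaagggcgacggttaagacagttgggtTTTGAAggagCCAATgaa
Mcm5 (chr8:75109259-75109508, plus strand): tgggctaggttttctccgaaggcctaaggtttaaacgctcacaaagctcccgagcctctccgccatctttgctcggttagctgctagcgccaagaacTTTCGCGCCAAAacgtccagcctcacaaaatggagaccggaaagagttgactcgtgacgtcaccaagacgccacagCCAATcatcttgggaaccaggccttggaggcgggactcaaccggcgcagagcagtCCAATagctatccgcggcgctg
Mcm6 (chr1:128359706-128359955, minus strand): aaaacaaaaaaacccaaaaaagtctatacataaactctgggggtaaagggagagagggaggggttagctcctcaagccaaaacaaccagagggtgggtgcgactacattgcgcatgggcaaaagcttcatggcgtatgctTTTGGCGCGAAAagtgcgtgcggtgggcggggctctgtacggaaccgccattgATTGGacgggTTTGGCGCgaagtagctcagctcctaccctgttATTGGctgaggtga

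CCAAT lay in 16 of the 18 mitotic promoters (88.9%) and a CHR in 14 (77.8%), and all 14 of those held both. An E2F word lay in 1 of them (5.56%). Among the 17 S phase promoters, CCAAT lay in 10 (58.8%), a CHR in 3 (17.6%) and an E2F word in 6 (35.3%). Over all 27025 promoters of the same length the shares were 37.9% for CCAAT, 19.4% for the CHR, 2.32% for E2F words and 7.70% for CHR with CCAAT. These matches describe letters within the windows. The members without a window were Ccne2, Mcm4, Gins2, Ccna2, Foxm1, Aurkb, Kif20a, Tpx2, Ccnd1 and Ccnd2.

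Read depth was 23254660 to 32053551 counts on genes per library, and 3 counts, taken as the floor, correspond to 0.0916 to 0.136 counts per 1e6 counts (CPM). Dnm1l averaged 72.6 ± 2.61 CPM in the WT libraries and 61.9 ± 3.91 CPM in the Drp1 KO libraries (SD, n = 3), a difference that did not pass (log2 fold change -0.23, SE 0.0921, adjusted p = 0.248, edgeR quasi-likelihood test with Benjamini-Hochberg adjustment). The floxed segment was not examined separately. All 12 macrophage markers were expressed in every library, with a summed level of 16172 to 16836 TPM in WT and 13407 to 16405 TPM in Drp1 KO. All 12 hematopoietic progenitor markers had more than 3 counts in at least 1 library, and their sum was 3.46 to 5.12 TPM in WT and 3.75 to 5.30 TPM in Drp1 KO. Neutrophil markers summed to 115 to 186 TPM in WT and 211 to 351 TPM in Drp1 KO, with a median log2 fold change of 1.16 among those tested. Of the 10 markers, 2 had no more than 3 counts in any library, namely Ly6g, at 0 counts in all 6 libraries, and Retnlg. S100a9, the most abundant of them, had 80 to 862 counts per library. The part of these other cell types in the results was not tested.

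Ccnd2 was the single member past an adjusted p under 0.05, and it was several fold higher in Drp1 KO BMDMs. Over all genes, 3.36% passed the same rule (edgeR, Benjamini-Hochberg). The study's criteria, a log2 fold change beyond 0.32 in either direction with an unadjusted p under 0.05, were met by 6 of the 47 members against 12.7% of all genes. Of these, Ccnd1, Ccnd2, Ccne1, Cdt1 and Gins2 were higher in Drp1 KO, against 7.19% of all genes, and Cenpf was lower, against 5.48%. DESeq2 called Ccnd1 and Ccnd2 at an adjusted p under 0.05, against 6.25% of all genes. With the library number as a block, which assumes a pairing that no source states, 7 members had an adjusted p under 0.05 against 12.0% of all genes. These were Ccnd1, Ccnd2, Cdkn1a, Cdt1 and Gins2, which rose, and Cenpf and Mki67, which fell, against 6.73% and 5.22% of all genes in the respective directions. With both libraries numbered 1 left out, 7 members passed against 10.5% of all genes, with Mcm7 in place of Gins2. The 2 groups did not overlap in 6 members against 21.9% of all genes. Ccnd1, Ccnd2, Cdt1, Gins2 and Mybl2 were higher in every Drp1 KO library, against 11.7% of all genes, and Rrm1 was lower, against 10.3%.

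**Figure D1:**
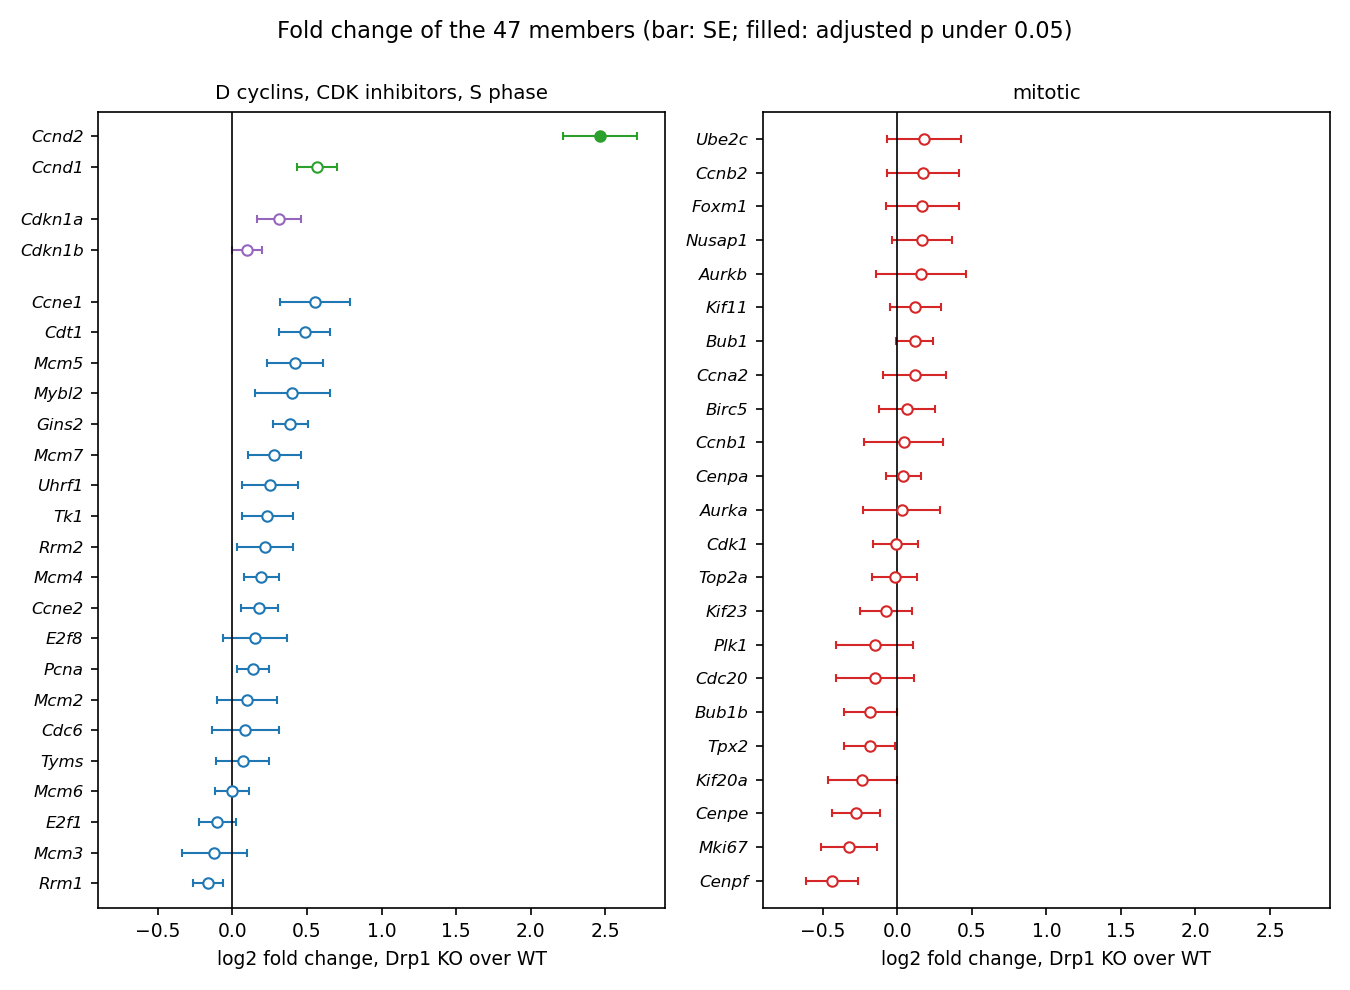
log2 fold change of Drp1 KO over WT for each of the 47 members (points) with its SE (bars, 3 libraries per group), with D cyclins, CDK inhibitors and S phase genes in the left panel and mitotic genes in the right panel. Ccnd2 at 2.46 is the filled point, 16 of 20 S phase genes lie above 0, and mitotic genes lie on both sides of 0, from -0.44 to 0.18.

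The D cyclins act first, coupling growth signals to CDK4 and CDK6. Ccnd2 (ENSMUSG00000000184, chr6:127102125-127129156, minus strand, GRCm39) stood at 1.03, 1.31 and 0.988 CPM in WT libraries 1 to 3 and at 7.67, 6.17 and 4.69 CPM in Drp1 KO libraries 1 to 3. The lowest Drp1 KO library was above every WT library. The log2 fold change was 2.46 (SE 0.249, adjusted p = 0.000635, edgeR with Benjamini-Hochberg adjustment), and it lay between 2.24 and 2.71 in 15 other settings, in each of which it passed. These levels rested on 24, 35 and 29 counts in WT and on 169, 202 and 153 counts in Drp1 KO, and 1 of the gene's 8 transcripts held 96.6% to 100% of them. Per length Ccnd2 was the lowest of the 47 members in WT, at 0.223 to 0.290 TPM, and in Drp1 KO, at 1.30 to 1.74 TPM, it lay among the lowest S phase members Cdc6 and Mybl2. In bulk RNA, a change in the number of cells that express a gene and a change in RNA per cell cannot be told apart.

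Ccnd1 (ENSMUSG00000070348, chr7:144483668-144493662, minus strand) was the more abundant D cyclin in both groups. It stood at 24.1, 21.9 and 20.7 CPM in WT and at 30.7, 28.9 and 39.0 CPM in Drp1 KO, with no overlap between groups. The log2 fold change was 0.56 (SE 0.134) with an adjusted p of 0.0512, just outside the threshold (edgeR, Benjamini-Hochberg). With the replicate block the adjusted p was 0.0103, and DESeq2 gave 0.00986. The gene overlaps LTO1 on the opposite strand, which had 237 to 400 counts, and whether the quantification used strand is not given in the sources used here. Its level per length, 7.93 to 8.67 TPM in WT and 10.3 to 14.0 TPM in Drp1 KO, was far above the 0.223 to 0.290 TPM and 1.30 to 1.74 TPM of Ccnd2.

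After Pcna the CDK inhibitors were the most abundant members per length, with a mean of 128 TPM for Cdkn1a and 68.4 TPM for Cdkn1b. Cdkn1a (ENSMUSG00000023067, chr17:29309936-29319701, plus strand), which encodes p21 and is a classic p53 target, stood at 192, 138 and 142 CPM in WT and at 223, 196 and 168 CPM in Drp1 KO. The groups overlapped, since WT library 1 exceeded Drp1 KO library 3, but within each library number the Drp1 KO value was higher, by 0.21, 0.50 and 0.24 on the log2 scale. The log2 fold change was 0.31 (SE 0.147), with an adjusted p of 0.330 without the block and 0.0253 with it (edgeR, Benjamini-Hochberg). Leaving out library 1 or 2 of WT gave 0.48 or 0.21, and leaving out library 1 of Drp1 KO gave 0.20. Cdkn1b, which encodes p27, stood at 96.7, 117 and 116 CPM in WT and at 120, 115 and 117 CPM in Drp1 KO. Its groups overlapped, and its log2 fold change of 0.10 (SE 0.0998, adjusted p = 0.724, edgeR with Benjamini-Hochberg adjustment) was within the spread of the libraries.

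**Figure D2:**
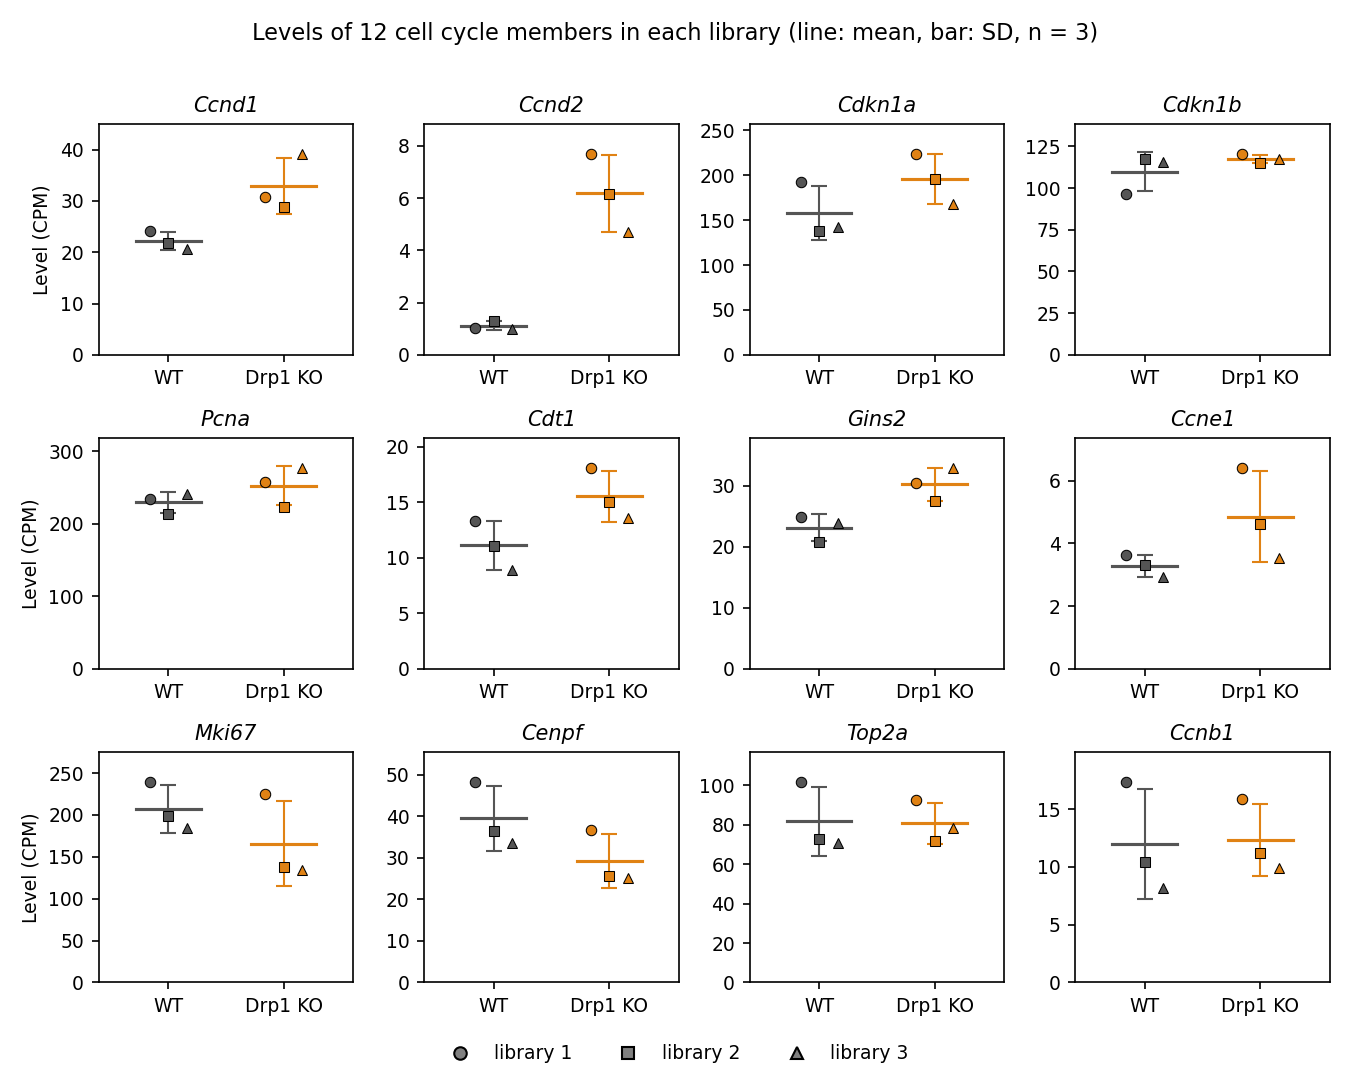
Level in CPM of 12 members in each library (circles, squares and triangles for libraries 1, 2 and 3), with the mean (line) and SD (bar) of the 3 WT and 3 Drp1 KO libraries. Ccnd2 and Ccnd1 do not overlap between groups, whereas Mki67, Cenpf and Ccnb1 are highest in library 1 of either group.

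Of the 20 S phase members, 16 had a log2 fold change above 0, against 50.6% of all genes, and their median was 0.19 against 0.0046 over all genes. With counts scaled for length, 12 of the 20 were above 0, against 50.4% of all genes, with a median of 0.10. None passed an adjusted p under 0.05 (edgeR, Benjamini-Hochberg), while 3 had an unadjusted p under 0.05, against 16.4% of all genes, and DESeq2 called none of them. The replicate block called Cdt1 and Gins2, both higher, against 6.73% of all genes. Higher values in Drp1 KO within all 3 library numbers were found for 9 of the 20 (45%) against 23.7% of all genes, and lower values within all 3 for 1 of them, Rrm1, against 22.1% of all genes.

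The S phase members past the study's criteria were Gins2, Cdt1 and Ccne1. Gins2 (ENSMUSG00000031821, chr8:121305372-121316043, minus strand), a subunit of the GINS complex in the active helicase, stood at 24.8, 20.7 and 23.8 CPM in WT and at 30.4, 27.4 and 32.8 CPM in Drp1 KO. The groups did not overlap, and the log2 fold change was 0.39 (SE 0.117, adjusted p = 0.118 and 0.0142 with the block, edgeR with Benjamini-Hochberg adjustment). It overlaps Gse1 on the opposite strand, which had 1224 to 1610 counts. Cdt1 (ENSMUSG00000006585, chr8:123294703-123300293, plus strand), which loads the MCM helicase, stood at 13.3, 11.1 and 8.93 CPM in WT and at 18.1, 15.0 and 13.6 CPM in Drp1 KO. Here too the groups did not overlap, with a log2 fold change of 0.48 (SE 0.171, adjusted p = 0.181 and 0.0108 with the block, edgeR with Benjamini-Hochberg adjustment). Ccne1 (ENSMUSG00000002068, chr7:37797404-37808264, minus strand), the CDK2 partner at the entry into S phase, stood at 3.62, 3.30 and 2.93 CPM in WT and at 6.40, 4.61 and 3.53 CPM in Drp1 KO. Its groups overlapped, and the log2 fold change of 0.55 (SE 0.236) had an adjusted p of 0.276 (edgeR, Benjamini-Hochberg) and was 0.30 without Drp1 KO library 1. It overlaps 1600014C10Rik on the opposite strand, with 284 to 501 counts. Cdc6, which works with CDT1, had a log2 fold change of 0.09, or -0.21 with counts scaled for length, and Ccne2 of 0.18. Cdc6 and Ccne2 had 0.25 and 0.31 without both libraries numbered 1.

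The 6 subunits of the MCM2-7 helicase did not move together. Their log2 fold changes ran from -0.12 for Mcm3, which was 0.04 without both libraries numbered 1, to 0.42 for Mcm5, and none passed the test with or without the block, though Mcm7 passed when WT library 1 or both libraries numbered 1 were left out. Mcm2 stood at 29.1, 18.0 and 17.1 CPM in WT and at 26.8, 21.0 and 20.8 CPM in Drp1 KO. Library 1 was the highest in either group, the groups overlapped, and the log2 fold change was 0.10 (SE 0.200), which was below 0 in 4 of 15 other settings.

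Pcna (ENSMUSG00000027342, chr2:132091082-132095234, minus strand), the sliding clamp of the replication fork, was the most abundant member per length, with a mean of 430 TPM. It stood at 235, 214 and 241 CPM in WT and at 258, 223 and 277 CPM in Drp1 KO. The ranges overlapped although each Drp1 KO library exceeded the WT library of the same number, by 0.14, 0.06 and 0.20 on the log2 scale, and the log2 fold change was 0.14 (SE 0.106, adjusted p = 0.608 and 0.278 with the block, edgeR with Benjamini-Hochberg adjustment). In TPM the order differed, with 445, 416 and 479 in WT and 392, 355 and 491 in Drp1 KO.

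The genes of nucleotide supply had no common direction. Rrm1, the large subunit of ribonucleotide reductase and the second most abundant S phase member with a mean of 30.9 TPM, stood at 53, 44.6 and 46.1 CPM in WT and at 43.4, 41.4 and 43.1 CPM in Drp1 KO. Every Drp1 KO library was below every WT library, but the log2 fold change of -0.17 (SE 0.10) had an adjusted p of 0.472 (edgeR, Benjamini-Hochberg). Its value was -0.09 without WT library 1. Rrm2, its small subunit, Tk1 (thymidine kinase) and Tyms (thymidylate synthase) had log2 fold changes of 0.22, 0.23 and 0.07, and with counts scaled for length Tk1 had 0.10 and Tyms -0.27. Rrm2, Tk1 and Tyms had 0.39, 0.38 and 0.12 without both libraries numbered 1. Among the regulators, E2f1, the activator of S phase genes, stood at 20.4, 18.0 and 18.2 CPM in WT and at 16.8, 15.9 and 19.9 CPM in Drp1 KO. Its ranges overlapped, with a log2 fold change of -0.10 (SE 0.125, adjusted p = 0.781, edgeR with Benjamini-Hochberg adjustment). E2f8, an E2F repressor, had a log2 fold change of 0.15, Mybl2, the B-MYB subunit of the mitotic activator, 0.40, or 0.22 with counts scaled for length and 0.19 without both libraries numbered 1, and Uhrf1, which guides DNMT1 to replicated DNA, 0.25, or -0.07 with counts scaled for length.

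Of the 23 mitotic members, 12 had a log2 fold change above 0 and 11 below, with a median of 0.03. None passed an adjusted p under 0.05 in edgeR or DESeq2, and 1 had an unadjusted p under 0.05, against 16.4% of all genes. The 2 groups overlapped in all 23, while 21.9% of all genes did not overlap. Within library numbers, 4 were higher in Drp1 KO in all 3 (17.4%) against 23.7% of all genes, and 6 were lower in all 3 (26.1%) against 22.1% of all genes. The median changed sign when single libraries were left out, from -0.18 without Drp1 KO library 1 to 0.17 without WT library 1.

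The lowest log2 fold changes among the mitotic members, with counts not scaled for length, were those of Cenpf and Mki67. Kif20a and Bub1b were lower than both with counts scaled for length. Cenpf (ENSMUSG00000026605, chr1:189372752-189420315, minus strand), a large kinetochore protein, stood at 48.2, 36.5 and 33.7 CPM in WT and at 36.6, 25.7 and 25.2 CPM in Drp1 KO. The groups overlapped through library 1 of Drp1 KO, and within library numbers Drp1 KO was lower by a similar amount each time, with differences of -0.40, -0.50 and -0.41 on the log2 scale. The log2 fold change was -0.44 (SE 0.175, adjusted p = 0.244 and 0.00561 with the block, edgeR with Benjamini-Hochberg adjustment). Mki67 (ENSMUSG00000031004, chr7:135291513-135318299, minus strand), which encodes the proliferation marker Ki-67 that coats mitotic chromosomes, stood at 239, 199 and 184 CPM in WT and at 225, 138 and 135 CPM in Drp1 KO. Library 1 of Drp1 KO lay within the WT range and the other two below it, giving differences of -0.09, -0.53 and -0.45 within library numbers. The log2 fold change was -0.32 (SE 0.190, adjusted p = 0.455 and 0.0279 with the block, edgeR with Benjamini-Hochberg adjustment), and -0.49 (adjusted p = 0.00518, edgeR with Benjamini-Hochberg adjustment) when both libraries numbered 1 were left out. Without Drp1 KO library 1 alone Mki67 passed at -0.62 (adjusted p = 0.0275, edgeR with Benjamini-Hochberg adjustment), whereas leaving out WT library 1 gave -0.21, and leaving out library 2 or 3 of Drp1 KO gave -0.20 or -0.19. Cenpf was -0.27 without WT library 1.

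Cenpf, Mki67 and Cenpe, the kinesin of the kinetochore with a log2 fold change of -0.28, were also the 3 members with the greatest mean effective transcript length, at 7347, 9221 and 6532 bases. Among genes whose mean reached 5 CPM, the median log2 fold change was -0.06 in the 416 genes of at least 6000 bases and 0.03 in the 4401 genes under 2000 bases. With counts scaled for length the 3 genes had -0.38, -0.25 and -0.20. The part of transcript length in these values was not tested.

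The other mitotic members showed smaller differences. Top2a, the topoisomerase that untangles sister chromatids, stood at 102, 72.9 and 70.5 CPM in WT and at 92.3, 71.8 and 78.1 CPM in Drp1 KO. The groups overlapped fully, with a log2 fold change of -0.02 (SE 0.152). Ccnb1, the cyclin that activates CDK1 at mitotic entry, stood at 17.3, 10.4 and 8.14 CPM in WT and at 15.8, 11.2 and 9.94 CPM in Drp1 KO, with a log2 fold change of 0.04 (SE 0.267). Cenpa, the histone variant of the centromere and the most abundant mitotic member with a mean of 33.4 TPM, stood at 26.9, 29.7 and 33.9 CPM in WT and at 32.8, 28.7 and 31.8 CPM in Drp1 KO. Its log2 fold change was 0.04 (SE 0.116). In these 3 genes the spread between libraries of 1 group exceeded the difference between groups.

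Cdk1 itself, the mitotic kinase, had a log2 fold change of -0.01, its cyclins Ccna2 and Ccnb2 had 0.12 and 0.17, and Foxm1, the mitotic transcription factor, had 0.17. Among the mitotic kinases, Aurka, Aurkb and Plk1 had 0.03, 0.16 and -0.15. The spindle checkpoint kinase Bub1 and its relative Bub1b had 0.12 and -0.18, the chromosomal passenger Birc5 (survivin) had 0.07, and Cdc20 and Ube2c, which act with the anaphase-promoting complex, had -0.15 and 0.18. The motors Kif11, Kif20a and Kif23 had 0.12, -0.23 and -0.08, and the spindle proteins Tpx2 and Nusap1 had -0.18 and 0.17. None of these passed the test with or without the block. With counts scaled for length, Aurka, Plk1, Bub1, Kif23, Tpx2 and Nusap1 changed sign, to -0.26, 0.06, -0.004, 0.34, 0.10 and -0.02, and Kif20a and Bub1b moved to -0.53 and -0.41. Leaving out both libraries numbered 1 moved Kif20a, Cdc20 and Plk1 to -0.03, -0.007 and -0.04. It moved Birc5, Ccna2 and Kif11 to 0.25, 0.27 and 0.22, and Ube2c to 0.11.

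Set beside each other, the S phase members had a median log2 fold change 0.16 above that of the mitotic members. The difference was 0.15 with the replicate block, 0.20 without both libraries numbered 1, and 0.08 with counts scaled for length, and it stayed above 0 in every setting run. These settings reuse the same genes and libraries. Lists of 42 further S phase and 48 further mitotic genes, described below, had closer medians, of 0.05 and 0.002. Leaving out both libraries numbered 1 reversed their order, to -0.0008 and 0.01. For each library, the median deviation of the S phase members from their mean over the 6 libraries was compared with that of the mitotic members. This S phase minus mitotic value was -0.29, -0.01 and -0.002 in WT libraries 1 to 3 and -0.05, 0.14 and 0.20 in Drp1 KO. The groups overlapped because library 1 was the lowest in each, and within library numbers Drp1 KO exceeded WT by 0.24, 0.15 and 0.20. The genes were taken as a list chosen with earlier results known, so no test was applied to this value.

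**Figure D3:**
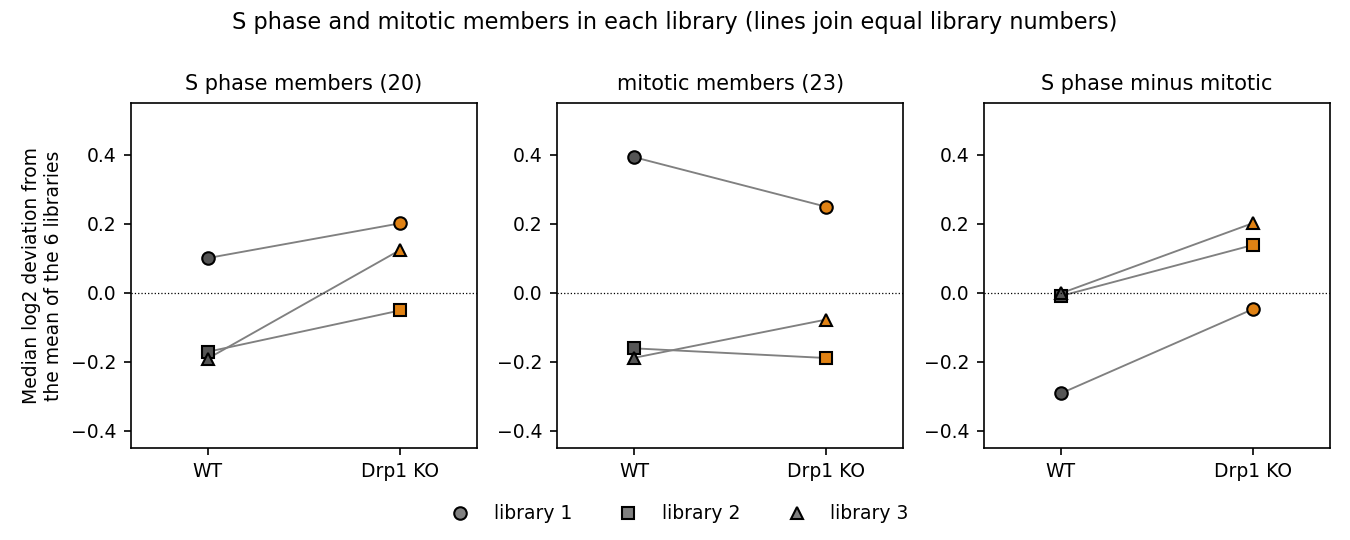
Median deviation, on the log2 scale, of the 20 S phase members (left), the 23 mitotic members (middle) and their difference (right) in each library, with lines joining WT and Drp1 KO libraries of the same number. The difference rises from WT to Drp1 KO along all 3 lines, by 0.15 to 0.24, and library 1 is the lowest of each group in it.

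Summed levels did not separate the groups. The S phase members summed to 651, 596 and 658 TPM in WT and to 588, 528 and 697 TPM in Drp1 KO, and Pcna alone held 66.6% to 72.7% of that sum. The mitotic members summed to 390, 296 and 313 TPM in WT and to 349, 277 and 313 TPM in Drp1 KO. The ratio of the sums was 1.67, 2.01 and 2.10 in WT and 1.69, 1.91 and 2.22 in Drp1 KO, so it was lowest in library 1 and highest in library 3 of each group. The direction for the S phase sum depended on the scale, with a ratio of Drp1 KO to WT means of 0.952 in TPM and 1.09 in CPM. The lower TPM sum rested on Pcna, since without it the sum averaged 189 ± 15.4 TPM in WT and 192 ± 17.1 TPM in Drp1 KO (SD, n = 3).

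In the mitotic members, library 1 stood apart from the other two in WT and in Drp1 KO alike. Library 1 was the highest of its group in both groups for 22 of the 23 mitotic members, for 10 of the 20 S phase members and for 23.2% of all genes. The exception was Cenpa. On the log2 scale, library 1 exceeded the mean of the other two by a median of 0.51 in WT and 0.48 in Drp1 KO over the mitotic members, by 0.23 and 0.16 over the S phase members, and by -0.02 and -0.01 over all genes. Aurkb, the kinase of the chromosomal passenger complex, had one of the wider gaps, with 9.96, 5.21 and 5.45 CPM in WT and 10.9, 5.59 and 6.59 CPM in Drp1 KO. A list of 48 further mitotic genes had library 1 highest in both groups for 37, and a list of 42 further S phase genes for 14. The points share the libraries, so these counts describe 2 libraries and not 22 independent events.

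Libraries numbered 1 also had the fewest counts of their group, 24138024 in WT and 23254660 in Drp1 KO, and the lowest TMM factors, 0.961 and 0.947. Neutrophil markers were lowest in them, at 115 TPM and 211 TPM, and progenitor markers summed to 3.46 TPM in WT library 1, the lowest of its group, and to 4.31 TPM in Drp1 KO library 1, between the other two. The sums of fibroblast markers, at 15.1 and 13.9 TPM, and of lymphocyte markers, at 21.6 and 24.8 TPM, were also lowest in library 1 of both groups. They rested mainly on Thy1, at 13.2 and 12.6 TPM, and on Ighm, at 12.2 and 16.9 TPM. Other markers of these lists differed. Dcn, at few counts, was highest in library 1 of both groups, at 0.635 and 0.554 TPM. Cd79b was highest in WT library 1 and lowest in Drp1 KO library 1, at 5.77 and 5.65 TPM. The part of depth and of other cells in the library 1 difference was not tested.

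**Figure D4:**
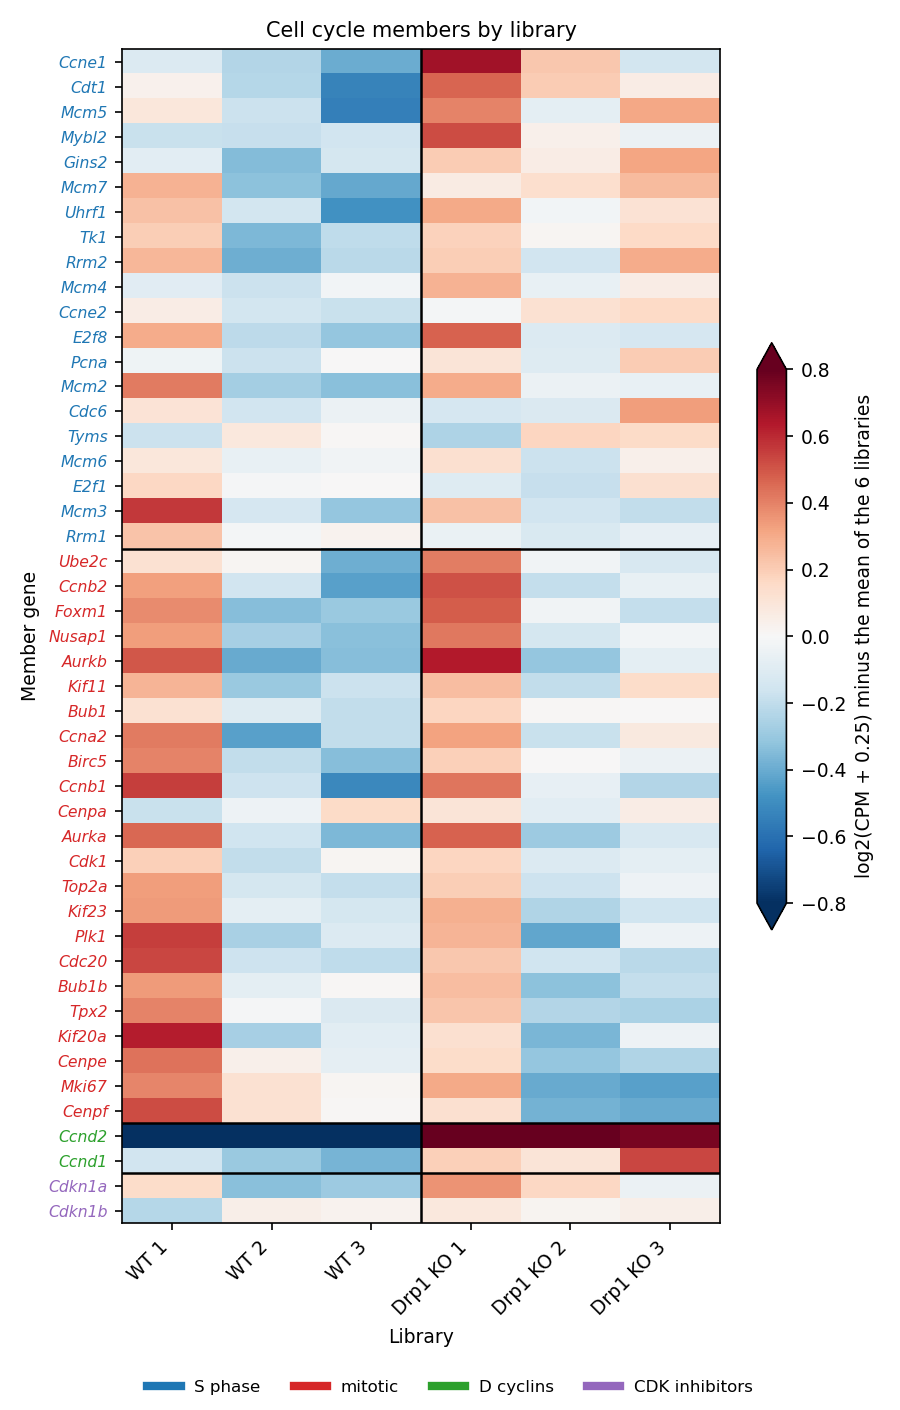
log2(CPM + 0.25) of each member minus its mean over the 6 libraries (red higher, blue lower), with genes in rows by role and libraries in columns. Among the mitotic members, 22 of 23 are highest in library 1 of both groups, while Ccnd2 exceeds the color scale and separates the genotypes.

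**Figure D5:**
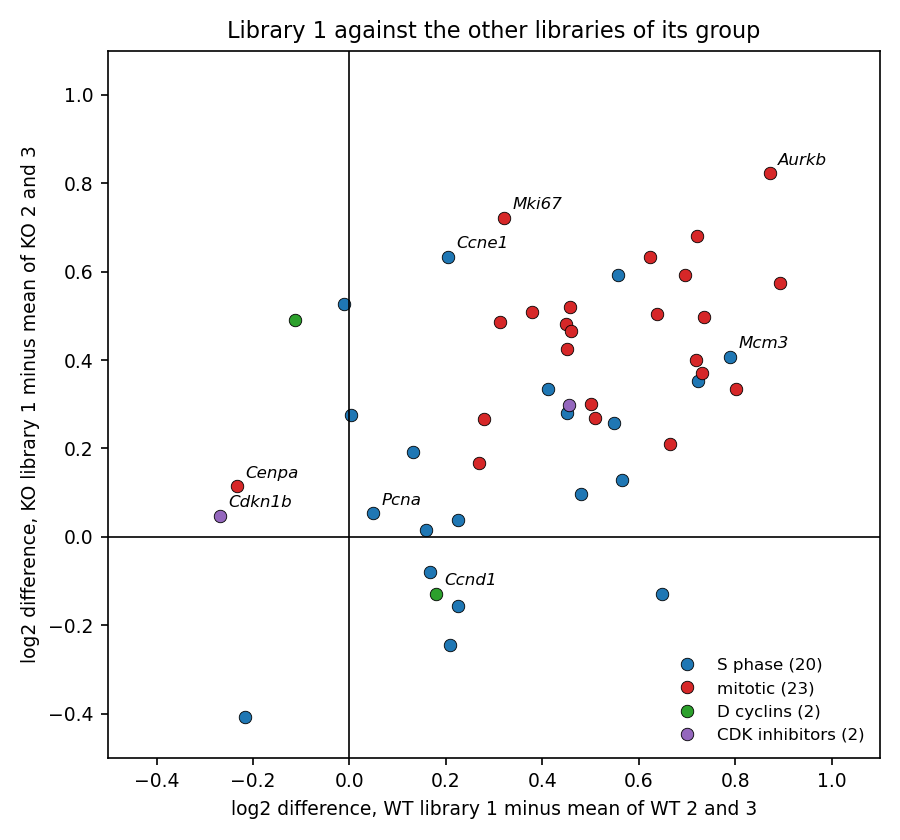
For each of the 47 members, the log2 difference between library 1 and the mean of libraries 2 and 3 in WT (x axis) and in Drp1 KO (y axis), colored by role. Mitotic members, with medians of 0.51 and 0.48, lie up and to the right of 0 apart from Cenpa, and S phase members spread around medians of 0.23 and 0.16.

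The wider pathway was read from lists of further genes. Of 42 further S phase genes, 24 were higher and 18 lower with a median log2 fold change of 0.05, and none passed an adjusted p under 0.05 (edgeR, Benjamini-Hochberg), with 7 at an unadjusted p under 0.05 against 16.4% of all genes. The smallest p belonged to Pola1, the catalytic subunit of DNA polymerase alpha, at 14.5, 14.7 and 14.4 CPM in WT and 19.3, 16.9 and 18.6 CPM in Drp1 KO. Its groups did not overlap, and the log2 fold change was 0.33 (SE 0.112, adjusted p = 0.162, edgeR with Benjamini-Hochberg adjustment). With the block 1 gene of this list passed, against 12.0% of all genes, namely Dnmt1, the maintenance DNA methyltransferase, which fell by 0.35 on the log2 scale and is named after its values were seen.

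Of 48 further mitotic genes, 24 were higher and 24 lower, with a median of 0.002, and 1 passed, against 3.36% of all genes. Ncapd2, a subunit of the condensin I complex that compacts mitotic chromosomes, rose, from 71.3, 72.3 and 71.8 CPM in WT to 90.1, 128 and 129 CPM in Drp1 KO. Its groups did not overlap, and the log2 fold change was 0.69 (SE 0.134, adjusted p = 0.0222, edgeR with Benjamini-Hochberg adjustment). Unlike most mitotic genes it was lowest in library 1 of both groups, if narrowly in WT. With the block Ncapd2 and the checkpoint gene Mad2l1 rose, against 6.73% of all genes, and Cdca8 and Incenp fell, against 5.22%, the last 3 being named after their values were seen.

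Of 27 regulators of the RB, E2F and DREAM pathway, 17 were higher and 10 lower with a median of 0.04, and none passed (edgeR, Benjamini-Hochberg), with 6 at an unadjusted p under 0.05 against 16.4% of all genes. Lin54, the DNA-binding subunit of MuvB that recognizes the CHR, had the smallest p. It stood at 36.8, 36.8 and 36.1 CPM in WT and at 46.9, 43.2 and 43.9 CPM in Drp1 KO, with no overlap, a log2 fold change of 0.29 (SE 0.0917) and an adjusted p of 0.135 without the block and 0.0371 with it (edgeR, Benjamini-Hochberg). Among 6 other CDK inhibitors, 3 were higher and 3 lower, and Cdkn2a, which encodes p16 and ARF, had the smallest p. It had 7, 4 and 2 counts in WT and 24, 10 and 36 counts in Drp1 KO, with a log2 fold change of 2.27 (SE 0.667) and an adjusted p of 0.107 without the block and 0.0273 with it (edgeR, Benjamini-Hochberg). The WT counts lie close to the floor of 3. With the block 1 gene of the regulator list rose, Lin54, against 6.73% of all genes, and 1 fell, against 5.22%, namely Ccnh, the cyclin of the CDK-activating kinase, with a log2 fold change of -0.38 (adjusted p = 0.0241, edgeR with Benjamini-Hochberg adjustment), and it is named after its values were seen.

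Because Cdkn1a is a p53 target, 22 other p53 targets were read beside it. Of these, 15 were higher, against 50.6% of all genes, and 7 lower, with a median log2 fold change of 0.26, and 2 passed an adjusted p under 0.05, against 3.36% of all genes (edgeR, Benjamini-Hochberg). Eda2r, a receptor of the TNF receptor family, stood at 1.03, 0.862 and 1.09 CPM in WT and at 2.27, 2.81 and 2.15 CPM in Drp1 KO. Trp53inp1, a p53-induced regulator of autophagy and cell death, stood at 118, 111 and 112 CPM in WT and at 140, 170 and 161 CPM in Drp1 KO. Neither gene overlapped between groups, and their log2 fold changes were 1.27 (SE 0.259, adjusted p = 0.0269) and 0.47 (SE 0.0992, adjusted p = 0.0329; edgeR with Benjamini-Hochberg adjustment). With the block 8 of the 22 rose, against 6.73% of all genes, and 2 fell, against 5.22% of all genes, namely Sesn1 and Zmat3, which are named after their values were seen.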

How the data were processed

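RNA was measured in 3 WT and 3 Drp1 KO libraries by paired-end sequencing of poly(A) RNA. The authors quantified reads with kallisto 0.46.1 against GRCm39 transcripts and deposited, for every transcript of a library, its estimated count and its TPM. The deposited estimated counts and TPM values were not scaled between libraries.

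By identifier, 99.4% of 116873 transcripts matched GENCODE genes, and the rest held no more than 0.575% of the counts in any library. Estimated counts were summed per gene and rounded, and genes with at least 10 counts in all were kept. Drp1 KO was compared with WT by edgeR 4.0.16 (R 4.3.3; TMM; quasi-likelihood test; no covariate). SEs are the log2 fold change divided by the root of the test's F. CPM values use TMM library sizes. The alternatives included DESeq2 1.42.0, limma-voom (limma 3.58.1), other normalizations and filters, length-scaled counts and leaving out each library. The scripts were tested on simulated data.

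The labels number the libraries 1 to 3 in both groups. Deviations from the group mean correlated at 0.510, 0.204 and 0.298 between libraries of the same number over 12248 genes, each above 0.1. Pairs of different numbers ranged from -0.443 to 0.326, the highest being WT library 2 with Drp1 KO library 3. That value exceeded both same-number values of libraries 2 and 3. The correlations therefore set libraries 1 apart but cannot tell which of libraries 2 and 3 belong together. Libraries of the same number were treated as pairs by their labels, an assumption, since no source states it. The blocked fit and the differences within library numbers rest on that assumption. The blocked fit is therefore printed where it changes a call. No pair of libraries was a copy of another.

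Every library's value was given for members past either threshold, for the 2 highest in mean TPM and the 2 with the smallest p among S phase and among mitotic members, and for Mki67, Top2a, Pcna, Mcm2, E2f1, Ccnb1, the D cyclins and the CDK inhibitors. From further lists, up to 3 genes that passed or the 1 with the smallest p were named, and Aurkb was named after its values were seen. Dendritic cell markers summed to 23.8 to 33.2 TPM in WT and 18.7 to 27.9 TPM in Drp1 KO, fibroblast markers to 15.1 to 26.3 and 13.9 to 18.0 TPM, and lymphocyte markers to 21.6 to 36.2 and 24.8 to 58.1 TPM. Erythroid markers (6 of 10 at 0) summed to at most 4.11 TPM, and mast cell and basophil markers (5 of 9 at 0) to at most 1.03 TPM. The members and lists were chosen with earlier results of these data known.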

Additional observations from a re-analysis of the deposited data

How the results depend on the processing

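The number of all genes with an adjusted p under 0.05 (621, edgeR) was 1064 with no filter beyond 1 count, 1156 with DESeq2, 2212 with the replicate block and 1880 with both libraries numbered 1 left out, an alternative chosen after seeing the data, and 181 to 904 with 1 library left out. The number of members past it (1) was 2 with library size only, no filter or DESeq2, 7 with the replicate block and 7 without both libraries numbered 1, and 1 to 2 with 1 library left out. The number past the study's criteria (6) was 12 without both libraries numbered 1 and 3 to 15 with 1 library left out, being 15 without WT library 1, 3 without WT library 2, and 4 without WT library 3. With 1 library left out, the S phase median ran from 0.103 to 0.369 (0.369 without WT library 1) and its excess over the mitotic median from 0.158 to 0.345 (0.345 without Drp1 KO library 1). That excess was 0.146 with the replicate block and 0.075 with length-scaled counts.

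Length-scaled counts turned the sign of 14 of the 47 members, Mcm2 (-0.18), Pcna (-0.032), Top2a (0.070), Cenpa (-0.063), Mcm6 (0.03) and the 9 given above (Tyms, Cdc6, Uhrf1, Aurka, Plk1, Bub1, Kif23, Tpx2 and Nusap1). Leaving out both libraries numbered 1 turned 4, Top2a (0.062), Cenpa (-0.073), Cdkn1b (-0.0065) and Mcm3 (0.04). With 1 library left out, Mcm2 ran from -0.058 to 0.38, Top2a from -0.13 to 0.17, Ccnb1 from -0.19 to 0.40 and Cenpa from -0.035 to 0.12, all changing sign, while Pcna ran from 0.070 to 0.22, E2f1 from -0.20 to -0.030 and Cdkn1b from 0.0098 (without WT library 1) to 0.13. Beside the calls given above, the pairing by the block changed no call of the named members. The causes of these shifts were not tested. Ccnd2, Eda2r and Cdkn2a rest on few WT counts, at 24 to 35, 23 to 32 and 2 to 7.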
